A study of Danio rerio with 6 samples.

Results

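The finTRIM family was examined in the regenerating tail fin of zebrafish (Danio rerio) kept with zinc oxide nanoparticles. Members were all entries of the deposited count table whose name begins with ftr and a digit, those with a number after a low dash (as in ftr11_1) included. They came to 89 of the 53709 entries and carried 72 distinct symbols. Its members are taken by name, but the family itself was chosen by its measured values: some members, ftr43 and ftr50 among them, had already been seen to differ between ZnO and control libraries of this series. The ZnO and control values below are therefore a description, and no test of that contrast supports anything said of the family.

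TRIM proteins carry a RING finger, which in many of them makes the protein a ubiquitin E3 ligase, followed by B-box and coiled-coil regions that let them assemble. The finTRIM proteins are a large fish-specific branch, first described among transcripts induced by virus in rainbow trout leukocytes, and many of them end in a B30.2 domain of the kind used to bind targets. In zebrafish most of the genes stand in tandem arrays of close copies, while ftr82, ftr83 and ftr84 are early-branching members kept across many fish species. Zebrafish ftr83 is known to be expressed in tissues exposed to water, such as the gill, and to raise type I interferon expression.

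Poly(A) RNA was taken from the tail fin blastema, the mass of cells from which a cut fin regrows, of male fish at 4 days post amputation. The ZnO group was kept for 4 days in water with Pro-ZnO, zinc oxide nanoparticles from a green synthesis with propolis extract, at 2 mg/L, and the control group in distilled water. Each group had 3 libraries, and both groups shared the amputation, the water volume of 150 mL and a room at 28 °C. The stated number of fish was 5 per group, in triplicate, and how fish were divided over libraries is not stated, so the spread given here is that between libraries. Strain and age are not given in the labels, and no group had the extract or dissolved zinc alone, so the parts of particle, extract and zinc cannot be told apart.

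Libraries held 26624174 to 31712994 counts, and 1 count was worth 0.0316 to 0.0383 CPM (counts scaled to a common library total, with totals adjusted by TMM, a trimmed mean of ratios). Of 14 markers fixed for the fin blastema and fin mesenchyme all were detected, with a summed level of 7681 to 8889 CPM in ZnO libraries and 5640 to 8458 CPM in control libraries. ZnO 2 and control 2 stood farther from the other libraries of their group than those stood from each other. The chi-square per gene was 42.9 and 42.0 between ZnO 2 and the other ZnO libraries, against 25.1 between ZnO 1 and ZnO 3. It was 42.0 and 34.5 between control 2 and the other controls, against 23.9 between control 1 and control 3. Levels are CPM and are not divided by transcript length, so they are compared between libraries and not between genes.

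Over the family, values in ZnO libraries leaned downwards by a small amount while single members differed by up to a log2 fold change of -1.47. Of the 89 entries 83 passed the filter on low counts and 6 did not. The median log2 fold change (ZnO over control) of the 83 was -0.25, beside 0.01 over all 25962 entries tested, and 60 of the 83 were negative, where 48.0% of all tested entries were. The number of negative members ran from 58 to 64 of 83 when each library was left out in turn. The quartiles of the members lay at -0.71 and 0.06, against -0.21 and 0.23 over all tested entries. All 89 entries together summed to 799, 700.2 and 824 CPM in the ZnO libraries and to 813, 979 and 843 CPM in the control libraries. The summed level was 775 ± 65.6 CPM in ZnO and 878 ± 88.2 CPM in control libraries (SD, n = 3 each). The ranges of the groups overlapped, since ZnO 3 was above control 1, and the difference of -103.6 CPM came to -53.4 CPM without control 2 and to -66.4 CPM without ZnO 2.

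In edgeR's quasi-likelihood fit over the whole table, with p-values adjusted by Benjamini-Hochberg, 2 of the 83 tested members, ftr43 and ftr50, fell, where 0.428% of all tested entries were called and 0.331% were called lower. None of the 83 was called higher by edgeR, where 0.0963% of all tested entries were, or by DESeq2, where 1.64% were. At an unadjusted edgeR p under 0.05, 18 members were lower and 3 higher, where 8.2% and 7.72% of all tested entries were. DESeq2 called 9 members lower, where it called 2.98% of all tested entries lower. They were ftr11, ftr41, ftr41_1, ftr43, ftr46, ftr50, ftr56, ftr73 and ftr91. All 3 ZnO libraries lay below all 3 controls for 19 members, where that held for 11.2% of all tested entries, and above them for 3 members, where that held for 11.3%. Since the contrast brought the family forward, these counts are read no further.

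**Figure D1:**
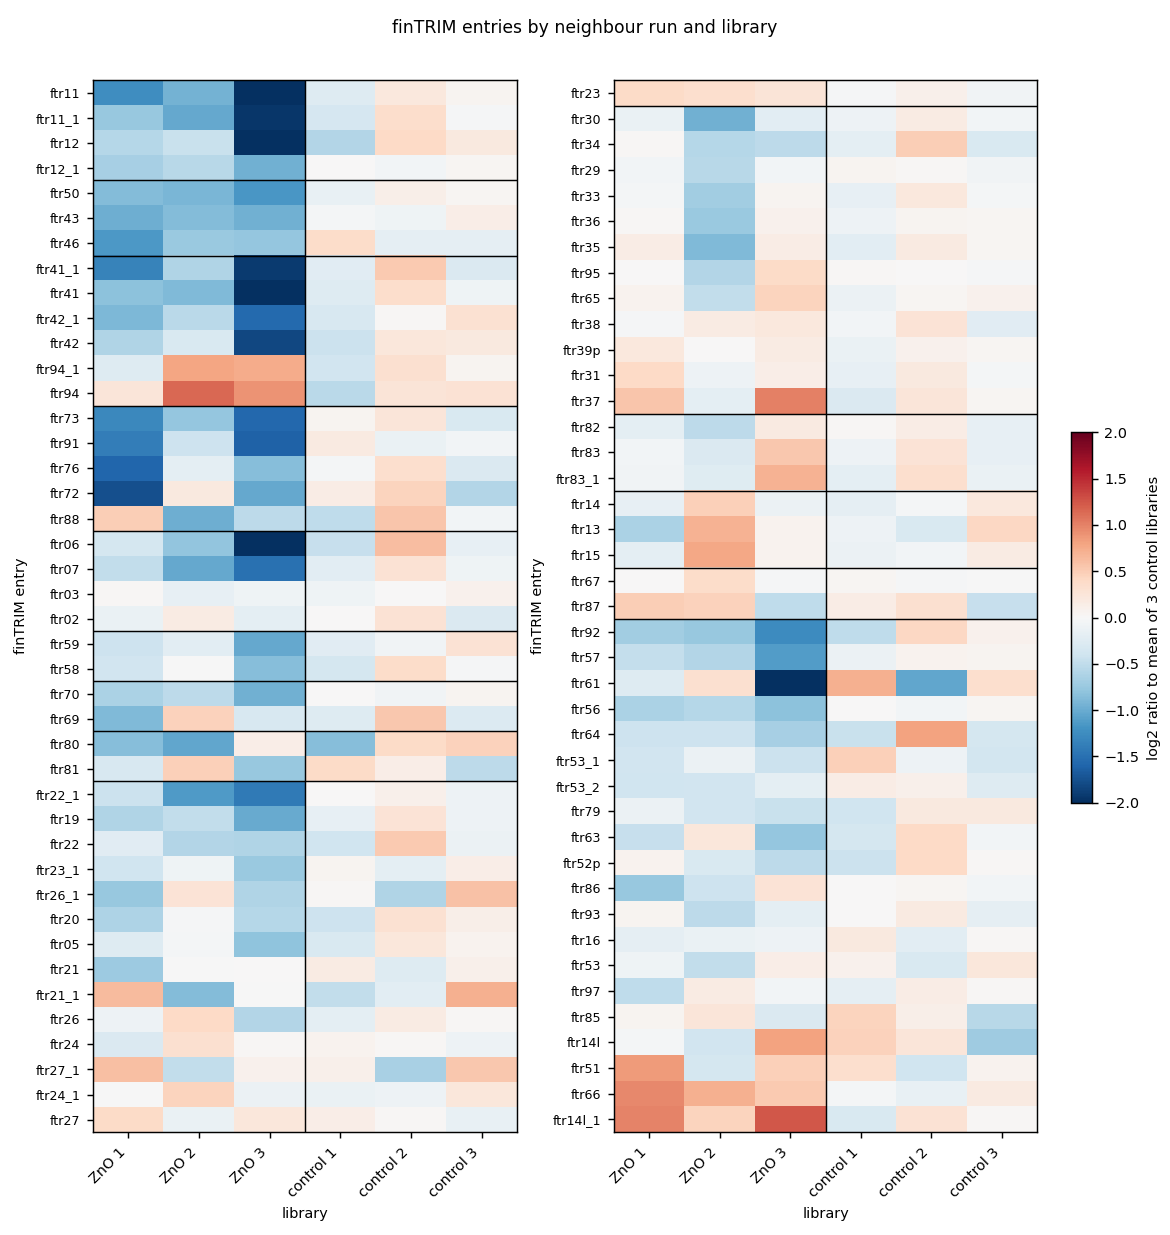
Each row is 1 of the 83 finTRIM entries that passed the filter and each column 1 library; colour gives the log2 ratio to the mean of the 3 control libraries after adding 0.1 CPM, and values beyond the scale are drawn at its end. Black lines separate runs of neighbouring genes, ordered by their median, with genes in no run and ftr97 (of unknown place) at the bottom right. The run of ftr19 to ftr27 ends at the top of the right panel. The rows of ftr43, ftr46 and ftr50 are evenly blue in ZnO 1, 2 and 3, those of ftr11, ftr12, ftr41 and ftr42 are darkest in ZnO 3, and most rows from ftr30 to ftr65 are blue in ZnO 2 alone.

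Where the members stand relative to each other was read from the order of genes in a RefSeq table of another assembly (GRCz12tu), which held 71 of the 72 symbols (not ftr97). finTRIM genes were taken as neighbours where at most 5 other protein-coding genes stood between them. This gave 13 runs of 2 to 12 genes with 52 genes in all, 1 of which, ftr77, has no entry in the count table, and 20 genes in no run. The 63 entries of genes in runs and the 20 tested entries of all other genes had the same median log2 fold change of -0.25. The latter include ftr97, whose place in the gene order is not known. Single runs, each of far fewer entries, had medians from -1.24 to 0.16. Single tested entries of genes in no run ran from -0.97 to 0.94, and whether position plays a part was not tested. The runs were defined after the values had been seen, and neighbouring close copies can share reads, so entries of a run are not independent.

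The 3 neighbours ftr43, ftr50 and ftr46 were at 49.3% to 55.3% of their summed control mean in the ZnO libraries. ftr43 stood at 6.07, 6.59 and 6.15 CPM in ZnO libraries and at 11.7, 11.4 and 13.2 CPM in control libraries. Its means were 6.27 ± 0.282 CPM in ZnO and 12.1 ± 0.965 CPM in control libraries (SD, n = 3 each), with a log2 fold change of -0.95 ± 0.14 (SE). Since ftr43 and ftr50 had already been seen to differ between the groups, their separation here is a description only. ftr50 stood at 6.83, 6.67 and 5.55 CPM in ZnO libraries and at 11.4, 13.6 and 12.9 CPM in control libraries. Its log2 fold change was -0.99 ± 0.15, and no ZnO library reached the lowest control. ftr46 stood at 5.89, 7.82 and 7.62 CPM in ZnO and at 17.01, 11.5 and 11.5 CPM in control libraries, with control 1 above the other controls and a log2 fold change of -0.91 ± 0.20. The run as a whole summed to 18.8, 21.1 and 19.3 CPM in ZnO libraries, 51.8% of its control mean, and to 40.1, 36.6 and 37.7 CPM in control libraries. The edgeR calls of ftr43 and ftr50 both ended with the replicate number as a block and when any 1 library other than ZnO 1 was left out, and that of ftr50 also with limma-voom and with a minimum count of 30 in the filter. Their log2 fold changes stayed between -1.06 and -0.89 in all 14 alternatives.

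ftr56, a gene in no run, had a similarly even pattern, with 9.26, 9.73 and 8.15 CPM in ZnO libraries and 14.6, 14.0 and 14.9 CPM in control libraries. Its log2 fold change was -0.68 ± 0.13 (SE), and DESeq2 called it where edgeR did not. Members outside the rule for naming were chosen after their values were seen where values are given for them. These are ftr02, ftr03, ftr06, ftr07, ftr12, ftr23, ftr46, ftr56, ftr72, ftr76, ftr88, ftr91 and the pseudogenes ftr39p, ftr52p and ftr53.

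The pair ftr11 and ftr12 had the lowest run median, -1.24. ftr11 stood at 3.43, 4.25 and 1.37 CPM in ZnO and at 6.93, 9.58 and 8.57 CPM in control libraries. It had the lowest log2 fold change of all tested members, -1.47 ± 0.37 (SE), and ZnO 3 lay well under the other 2 ZnO libraries. The numbered entry ftr11_1, at lower counts, also had ZnO 3 lowest. It stood at 0.659, 0.536 and 0.234 CPM in ZnO and at 0.920, 1.55 and 1.17 CPM in control libraries. The 4 entries of the pair together were at 45.6%, 52.8% and 16.9% of their control mean in ZnO 1, 2 and 3. Without ZnO 3 the ZnO mean was 49.2% of control, against 38.4% with it.

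Within the run of ftr42, ftr41 and ftr94 the genes went opposite ways. ftr41 stood at 2.57, 2.45 and 1.003 CPM in ZnO and at 3.81, 5.88 and 4.30 CPM in control libraries, a log2 fold change of -1.22 ± 0.35 (SE). Its numbered entry ftr41_1 stood at 1.46, 2.49 and 0.936 CPM in ZnO and at 3.25, 5.53 and 3.10 CPM in control libraries. In both the groups were apart and ZnO 3 was lowest. ftr94, next to them, stood at 2.32, 4.48 and 3.74 CPM in ZnO and at 1.31, 2.36 and 2.40 CPM in control libraries. Its log2 fold change was 0.79 ± 0.33, and ZnO 1 lay inside the control range. ftr94_1 had 1.14, 2.49 and 2.41 CPM in ZnO and 1.05, 1.76 and 1.45 CPM in control libraries, and there too ZnO 1 fell among the controls.

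In the run from ftr76 to ftr91 the members differed in which ZnO library was low. ftr73 stood at 5.37, 7.74 and 4.41 CPM in ZnO and at 13.9, 15.8 and 10.8 CPM in control libraries, with a log2 fold change of -1.21 ± 0.24 (SE). ftr91 stood at 5.58, 11.03 and 4.71 CPM in ZnO and at 16.7, 13.5 and 14.2 CPM in control libraries, so that ZnO 2 came near the lowest control. ftr72, between them in the gene order, stood at 3.47, 13.8 and 5.88 CPM in ZnO and at 13.3, 16.3 and 7.97 CPM in control libraries, and its groups overlapped. ZnO 1 and ZnO 3 were thus low for these 3 genes while ZnO 2 was the highest of the ZnO libraries. So it was for ftr76, with 1.42, 3.87 and 2.44 CPM in ZnO and 4.34, 5.64 and 3.64 CPM in control libraries. For ftr88 ZnO 2 was instead the lowest, with 11.6, 4.14 and 5.71 CPM in ZnO and 5.78, 12.2 and 7.94 CPM in control libraries. The 5 entries of the run summed to 27.5, 40.5 and 23.2 CPM in ZnO and to 54.0, 63.4 and 44.6 CPM in control libraries.

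**Figure D2:**
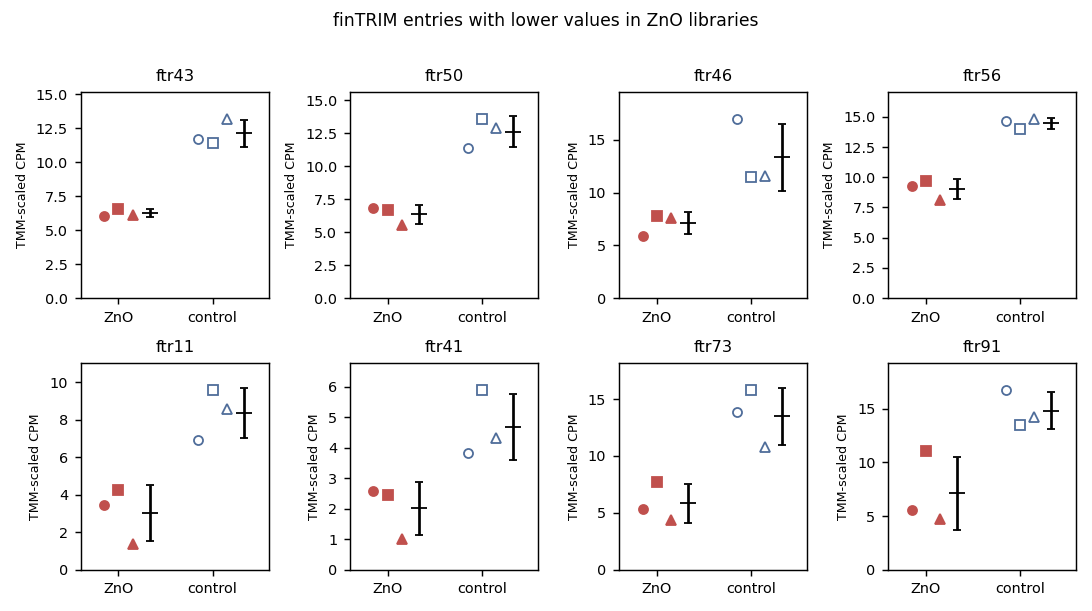
TMM-scaled CPM of 8 finTRIM entries in each library, on axes that start at 0; circles, squares and triangles are libraries 1, 2 and 3, filled for ZnO and open for control, and black bars give the mean ± SD of 3 libraries. ftr43, ftr50, ftr46 and ftr56 have ZnO libraries close together. For ftr11, ftr41, ftr73 and ftr91 ZnO 3 is the lowest library, as it also is for ftr50 and ftr56.

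Of all single tested entries 11.2% had the ZnO libraries wholly below the controls and 11.3% wholly above. No such share was taken for sums over neighbouring genes, so the next count has no background of its own. Summed over each run, the ZnO libraries lay below their controls without overlap in 4 of the 13 runs, and no run lay wholly above. They were the runs of ftr11 to ftr12 (38.4% of the control mean), ftr43 to ftr46 (51.8%) and ftr76 to ftr91 (56.3%), and the small run of ftr02 to ftr07 (83.6%), where the ZnO libraries came to 19.6, 19.7 and 16.3 CPM and control 3, the lowest control, to 19.95 CPM. In that last run ftr07 had 2.045, 1.38 and 0.969 CPM in ZnO and 2.496, 3.59 and 2.75 CPM in control libraries, a log2 fold change of -1.01. ftr06 had 1.94, 1.42 and 0.501 CPM in ZnO and 1.81, 3.91 and 2.25 CPM in control libraries, a log2 fold change of -1.04 with overlapping groups, while ftr02 and ftr03 had -0.07 and -0.08. The run of ftr13 to ftr15 had the highest ZnO mean, 113% of control, which rested on ZnO 2 at 156%. Without that library it was 91.2%.

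**Figure D3:**
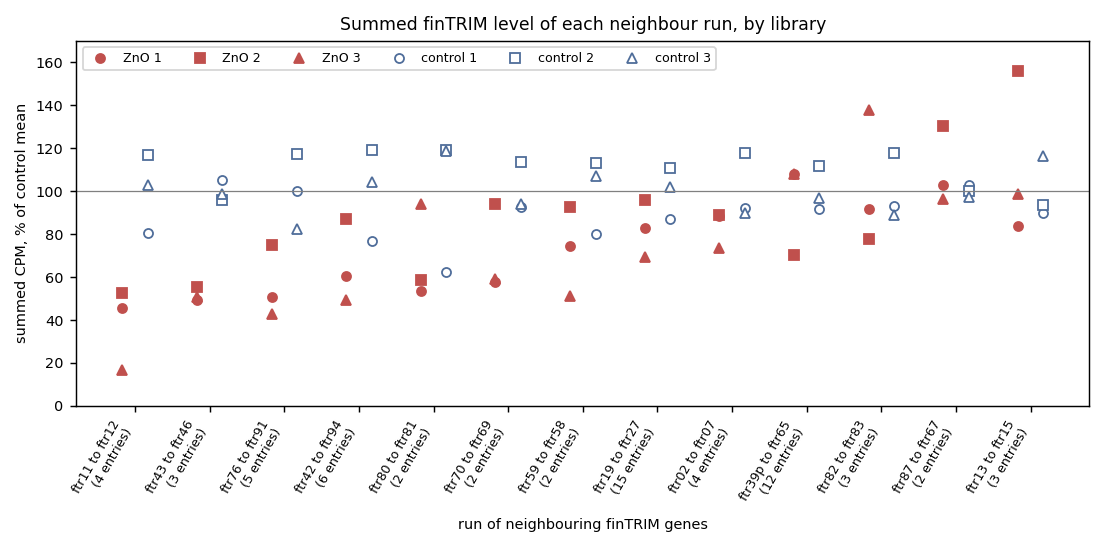
Summed TMM-scaled CPM of each run of neighbouring finTRIM genes, as a percentage of the mean of the 3 control libraries (vertical axis from 0), for each library; filled symbols are ZnO and open symbols control libraries, and the grey line marks the control mean. From left to right the ZnO mean goes from 38.4% in ftr11 to ftr12 to 113% in ftr13 to ftr15, and ZnO 2 (filled squares) drops to 70.2% in the run from ftr39p to ftr65.

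The longest run by number of genes, the 12 from ftr39p to ftr65 with 1 entry each, differed more between ZnO libraries than between the groups. It summed to 391, 254 and 390.2 CPM in ZnO and to 332, 404 and 350 CPM in control libraries. ZnO 2 was at 65.0% of the mean of ZnO 1 and ZnO 3, while those both lay inside the control range. ftr35 stood at 65.6, 32.2 and 66.2 CPM in ZnO and at 51.3, 67.3 and 60.8 CPM in control libraries, and ftr36 at 49.1, 28.7 and 51.1 CPM in ZnO and at 45.1, 50.4 and 49.4 CPM in control libraries. ZnO 2 was the lowest of the 6 libraries for 8 of the 12 entries, and for 21.1% of all tested entries. ftr31, the entry with the highest CPM of the family, was not among them, with 86.9, 61.5 and 72.3 CPM in ZnO and 59.2, 75.9 and 64.7 CPM in control libraries. The log2 fold changes of ftr35 and ftr36 were -0.13 and -0.17, and without ZnO 2 they were 0.13 and 0.04. For ftr95 the value was -0.01, and 0.19 without ZnO 2.

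The early-branching genes also had a low ZnO 2, together with a high ZnO 3. ftr83 stood at 27.8, 23.8 and 41.9 CPM in ZnO and at 26.96, 35.05 and 25.8 CPM in control libraries. ftr83_1 stood at 35.01, 31.2 and 59.4 CPM in ZnO and at 31.9, 46.2 and 33.5 CPM in control libraries. ftr82, the neighbour of ftr83, stood at 34.0, 27.1 and 44.0 CPM in ZnO and at 39.2, 43.0 and 34.6 CPM in control libraries. In all 3 entries the groups overlapped, ZnO 2 was the lowest library and ZnO 3 the highest. Their log2 fold changes were 0.09 ± 0.22, 0.17 ± 0.26 and -0.15 ± 0.18 (SE), which does not show that the levels were equal. ftr84 was close to the limit of detection, with 3, 0 and 1 counts in ZnO and 4, 3 and 9 counts in control libraries, and was not tested. Where a library holds no count of an entry, up to 3 counts remain possible, or 0.115 CPM in ZnO 2.

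**Figure D4:**
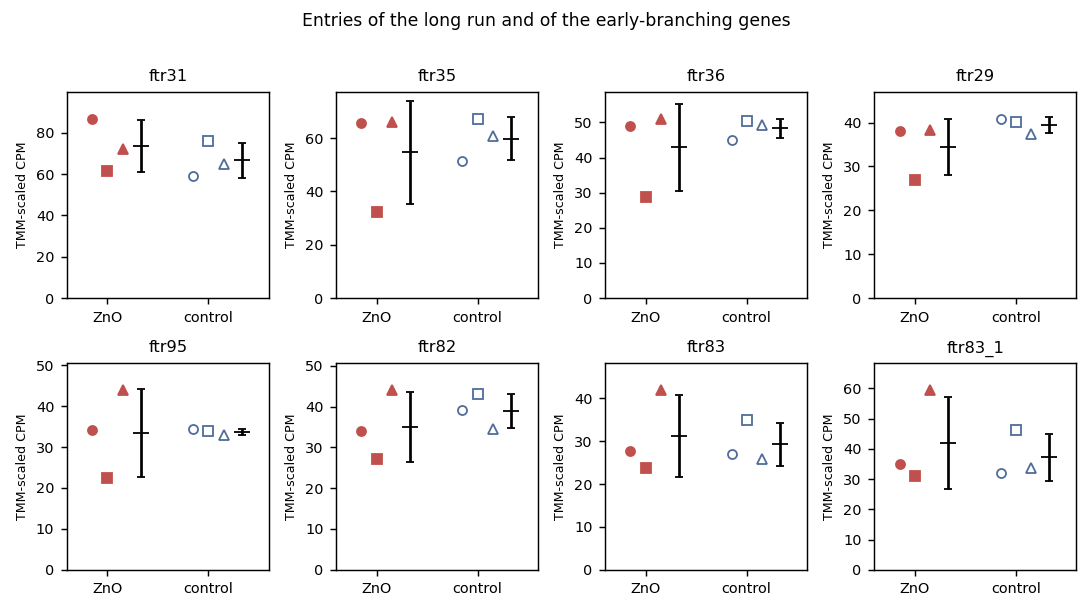
TMM-scaled CPM of 5 entries of the run from ftr39p to ftr65 and of ftr82, ftr83 and ftr83_1 in each library, on axes that start at 0, with filled symbols for ZnO, open symbols for control, circles, squares and triangles for libraries 1, 2 and 3, and mean ± SD in black. For ftr35, ftr36, ftr29 and ftr95 ZnO 2 lies below all other libraries, and for ftr83 and ftr83_1 ZnO 3 lies above them.

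ZnO 3 was the lowest of the 6 libraries for 33 of the 83 tested members, or 39.8%, where it was lowest for 16.7% of all tested entries. A high share was not particular to the family. Among groups described below, ZnO 3 was lowest for 26 of 37 tested interferon-stimulated effectors and 11 of 11 macrophage markers. It was lowest for 8 of 30 tested trim35 entries and 6 of 20 tested btr entries, and for 2 of 23 ubiquitin conjugation partners. ZnO 2 was the lowest for 20.5% of members. Leaving out ZnO 3 gave a median log2 fold change of the members of -0.27, leaving out ZnO 2 gave -0.29, and leaving out control 2 gave -0.20. Among the controls, control 2 was the high one. After adding 0.1 CPM, the median log2 ratio of the tested members to the control mean was 0.15 in control 2. It was -0.11 in control 1 and 0.02 in control 3.

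Of the 83 tested members 23 had a log2 fold change above 0, none of them past the edgeR or DESeq2 threshold. ftr14l_1 stood at 4.06, 2.72 and 4.81 CPM in ZnO and at 1.58, 2.43 and 2.02 CPM in control libraries, and its log2 fold change of 0.94 ± 0.28 (SE) was the highest of the tested members. The unnumbered ftr14l stood at 5.79, 4.56 and 10.5 CPM in ZnO and at 8.24, 7.08 and 3.60 CPM in control libraries, with overlapping groups. ftr66, a gene in no run, stood at 4.82, 4.02 and 3.51 CPM in ZnO and at 2.36, 2.18 and 2.75 CPM in control libraries, with separate groups and a log2 fold change of 0.76 ± 0.21. ftr37, inside the longest run, stood at 15.4, 9.08 and 21.2 CPM in ZnO and at 8.54, 12.4 and 10.7 CPM in control libraries, with ZnO 2 again low.

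The family has 17 numbered entries of 15 symbols, and what distinguishes them from the unnumbered entry is not given in the sources used here. In 15 cases both entries were tested, ftr53_1 and ftr53_2 both being set against ftr53. The difference in log2 fold change had a median size of 0.20 and was largest, 0.80, for ftr14l. The sign was the same in 14 cases. Since 60 of the 83 tested members were negative, many pairs would share a sign in any case, and no background share was taken. The signs were opposite for ftr23, with 4.13, 3.98 and 3.78 CPM in ZnO and 3.09, 3.38 and 3.004 CPM in control libraries, against ftr23_1 with 1.21, 1.53 and 0.936 CPM in ZnO and 1.71, 1.41 and 1.80 CPM in control libraries. If the authors' counting split reads of near-identical copies, numbered entries and tandem neighbours share that uncertainty. With the counts of numbered entries summed per symbol, 68 symbols were tested, ftr43 and ftr50 again were the 2 called, and the median log2 fold change was -0.22. The 6 entries below the filter were ftr01, with 0 counts in all libraries, ftr54, ftr55, ftr84, ftr84_1 and ftr53_3, and none exceeded 0.383 CPM in any library. RefSeq annotates ftr39p, ftr52p and ftr53 as transcribed pseudogenes, and the log2 fold changes of these unnumbered entries were 0.13, -0.27 and -0.15. The numbered entries ftr53_1 and ftr53_2 had -0.40 and -0.35.

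Other TRIM genes were set beside the finTRIM family by name. Entries named trim and a number came to 92, of which 72 were tested, with a median log2 fold change of -0.11 and 46 negative. The 30 tested trim35 entries, another multi-copy group in this table, had a median of -0.37 with 26 negative, and the 42 others a median of 0.02 with 20 negative. By edgeR 0 of the 72 passed in either direction, where 0.428% of all tested entries did, and 9 were lower and 4 higher at an unadjusted p under 0.05, where 8.2% and 7.72% were. DESeq2 called 2 of the 72 lower and 1 higher, where it called 2.98% and 1.64% of all tested entries. trim33, a nuclear regulator of Smad signalling, averaged 58.4 ± 6.41 CPM in ZnO and 61.2 ± 4.66 CPM in control libraries (SD, n = 3 each), and trim16 46.4 ± 0.902 CPM in ZnO and 48.4 ± 2.99 CPM in control libraries. Of the bloodthirsty-related btr entries, a further fish group of TRIM genes, 20 of 22 were tested, with a median of -0.11 and 15 negative. Neither edgeR direction held a btr call, 2 of the 20 were lower and 0 higher at an unadjusted p under 0.05, beside the same 8.2% and 7.72%, and DESeq2 called 2 lower, beside 2.98%. btr12 averaged 45.2 ± 14.2 CPM in ZnO and 39.6 ± 7.24 CPM in control libraries, and btr01 12.5 ± 3.38 CPM in ZnO and 13.3 ± 2.72 CPM in control libraries. The difference between these families and the finTRIM entries was not tested.

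Genes of the interferon response, from sensing to effectors, mostly had lower values in ZnO libraries. Over all tested entries 48.0% were negative, edgeR called 0.331% lower, 8.2% were lower and 7.72% higher at an unadjusted p under 0.05, and DESeq2 called 2.98% lower, and the counts of each list are to be read beside these shares. Of the interferon-stimulated effectors 35 of 37 tested lay below 0 (median log2 fold change -0.62). mxc, an antiviral Mx GTPase, was the 1 member edgeR called, with 97.5, 79.4 and 52.3 CPM in ZnO and 198, 263 and 189 CPM in control libraries, and DESeq2 called 12 lower. At an unadjusted p under 0.05, 20 effectors were lower and 0 higher. All ZnO libraries lay below all controls for 19 of the 37, where that held for 11.2% of all tested entries, and the groups overlapped for 18. Among interferon ligands, receptors and signal transducers 21 of 26 tested were negative with a median of -0.39, edgeR called 0, 14 were lower and 0 higher at an unadjusted p under 0.05, and DESeq2 called 8 lower. stat1b, a transcription factor that carries the interferon signal, averaged 91.3 ± 26.9 CPM in ZnO and 195 ± 54.5 CPM in control libraries, and irf1b, an interferon regulatory factor, 147 ± 39.9 CPM in ZnO and 280 ± 54.0 CPM in control libraries. For nucleic acid sensing up to interferon induction 21 of 25 tested were negative with a median of -0.21, edgeR called 0, 10 were lower and 0 higher at an unadjusted p under 0.05, and DESeq2 called 3 lower. ddx3xb, an RNA helicase, averaged 381 ± 30.5 CPM in ZnO and 493 ± 83.4 CPM in control libraries. Ubiquitin, its activating enzymes and the conjugating enzymes that can serve RING ligases had a median of -0.02, with 13 of 23 negative, 0 called by edgeR or DESeq2, and 1 lower and 1 higher at an unadjusted edgeR p under 0.05. ubc, a polyubiquitin gene, averaged 1094 ± 92.0 CPM in ZnO and 1152 ± 69.1 CPM in control libraries.

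**Figure D5:**
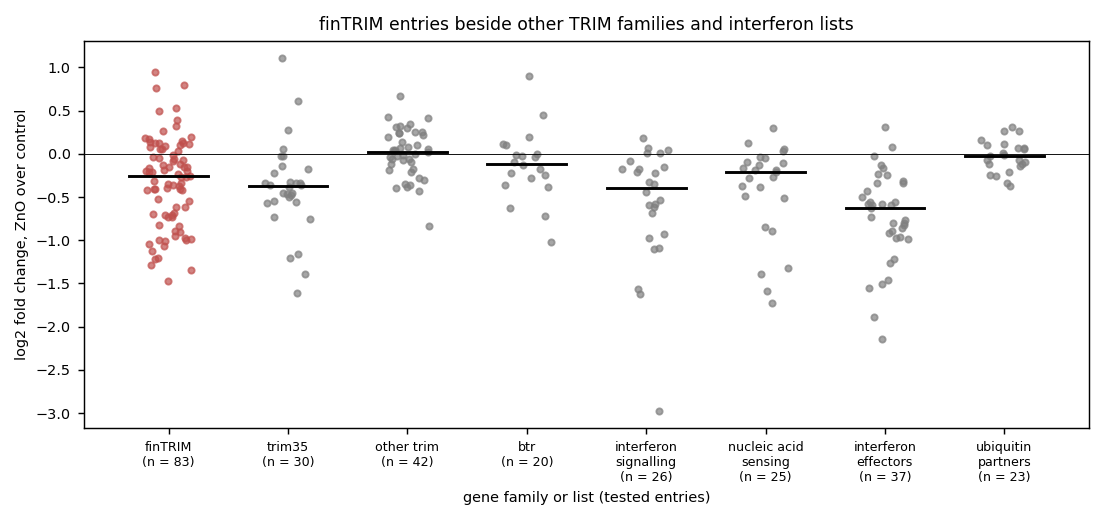
Log2 fold change (ZnO over control) of every tested entry of the finTRIM family (red), of other TRIM families and of 4 gene lists (grey), with the median as a black bar. Of the 83 finTRIM points 60 lie below 0, with a median of -0.25, and the interferon effectors have a median of -0.62.

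Markers of other cells differed beside the family. All 7 pan-leukocyte markers tested were negative, and their summed level was 1722 to 2255 CPM in ZnO and 2391 to 3100 CPM in control libraries, with ZnO 3 lowest. The 12 neutrophil markers, all negative, summed to 114 to 221 CPM in ZnO and 501 to 635 CPM in control libraries, with ZnO 2 lowest. The 11 macrophage markers with an entry, also all negative, summed to 261 to 428 CPM in ZnO and 396 to 629 CPM in control libraries. For T cells 8 of 9 markers were negative, with sums of 105 to 180 CPM in ZnO and 194 to 236 CPM in control libraries, and for B cells all 4 tested markers were, with sums of 22.8 to 42.3 CPM in ZnO and 96.0 to 313 CPM in control libraries. Erythrocyte markers were positive in 10 of 10, with sums of 146 to 384 CPM in ZnO and 27.2 to 147 CPM in control libraries. The 10 epidermal markers, 5 of them negative, summed to 8589 to 9986 CPM in ZnO and 7185 to 9266 CPM in control libraries. No marker with an entry was at 0 in all libraries. The part of these shifts in the finTRIM values was not tested, and in whole tissue fewer cells of a type and less RNA per cell cannot be told apart.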

How the data were processed

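Raw counts per gene entry were deposited by the authors for 3 ZnO and 3 control libraries, without normalization. The submitters' processing notes list the tools cutadapt, BWA, HTSeq and DESeq2 and the genome GRCz11. Tool settings, gene annotation, strand setting and the handling of multiply mapped reads are not stated. No column was left out.

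Entries were filtered with filterByExpr (minimum count 10), scaled by TMM and tested with edgeR's robust quasi-likelihood test on group alone, with Benjamini-Hochberg adjustment over 25962 entries and a threshold of 0.05. Log2 fold changes are ZnO over control, with SE. The SE was derived from the quasi-likelihood test, as the size of the log2 fold change divided by the square root of the F statistic. Fits used edgeR 4.0.16, DESeq2 1.42.0 and limma 3.58.1 in R 4.3.3, summaries pandas 2.3.3 and numpy 2.4.6 in Python 3.11.15, and figures matplotlib 3.10.9, and the scripts were tested on simulated data. Members and lists were chosen with earlier results of these data known. The naming rule took members past the threshold, the 10 with the highest CPM, the 5 lowest and 5 highest log2 fold changes at a mean of at least 0.5 CPM, ftr82, ftr83, ftr84, ftr43 and ftr50, and their numbered entries; list genes were named where called, or else by highest CPM. No library was a duplicate of another in its group, and pairs across groups were not checked in this way. Counts per library set the precision, and limits at 0 counts cover counting error only.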

Additional observations from a re-analysis of the deposited data

How the results depend on the processing

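Over the whole table edgeR called 86 entries lower and 25 higher. Without a filter these were 283 and 122, with a minimum count of 30 they were 58 and 14, and with DESeq2 774 and 425. With limma-voom they were 61 and 15, and with numbered entries summed per symbol 63 and 17. With the replicate number as a block they were 29 and 3. Of finTRIM entries 2 were called lower, 5 without a filter, 1 with a minimum count of 30, 9 with DESeq2, 1 with limma-voom and 0 with the replicate block. When 1 library was left out in turn, the table had 12 to 282 lower and 0 to 87 higher calls, and the finTRIM family 0 to 2 lower and 0 higher. The family's median log2 fold change ran from -0.30 to -0.20 over 14 alternatives, and the difference in summed CPM, -103.6, from -136 to -53.4 with a library left out. The cause of these changes was not tested.

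Same-numbered ZnO and control libraries did not deviate together (correlations of deviations 0.01, -0.05 and 0.08), so the numbers are not taken to pair them. Signs turned for members near 0. With upper-quartile scaling ftr95 was at 0.00078. With 1 library left out in turn, log2 fold changes ran from -0.25 to 0.19 for ftr95, from -0.0052 to 0.25 for ftr31, from -0.30 to 0.13 for ftr35, from -0.31 to 0.039 for ftr36, from -0.18 to 0.24 for ftr83, from -0.17 to 0.36 for ftr83_1 and from -0.28 to 0.38 for ftr14l. Of 316 repeated values of named members, most of them not called in the main fit, 286 kept direction and call. The call itself held in 8 of 14 alternatives for ftr43 and in 6 of 14 for ftr50. Allowing 0 or 20 other genes between neighbours, chosen after seeing the data, gave 16 or 12 runs.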
